A study of Mus musculus with 6 samples.

Results

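A set of 3 libraries of wild-type dermal fibroblasts, out of 6 libraries in the series, was described across the sterols they had been given. They are the libraries whose genotype label is wild type for the nuclear receptor RORγ (RORgamma+/+), and the rule that chose them used no measured value. The fibroblasts came from the dermis of newborn mice aged 1 to 2 days. Cells of different animals were pooled and used at early passage, so a library stands for a pool and not for a mouse. Each pool received 100 nM of 1 sterol for 24 h, diluted in medium with 10% charcoal-stripped serum and with ethanol at a final 0.1%, and at least 200 ng of RNA went into sequencing. The sterols were 20(OH)L3, 20(OH)Cholesterol and 20(OH)7DHC, with 1 library each. The other 3 libraries received the same sterols at the same dose and time and carry the label RORγ-/-. They are called the libraries labelled knockout. No library of cells given ethanol alone was analysed here, and the series' design text names other compounds than the labels of its samples, so the sterols are set against each other only. With 1 library per sterol no test can be made between sterols, no value has a replicate error, and a difference holds for these libraries.

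Dermal fibroblasts make and remodel the collagen-rich matrix of the skin, contract it through actin filaments during wound closure, and answer injury and microbial signals by secreting chemokines and cytokines. Cholesterol, 7-dehydrocholesterol and lumisterol share a sterol skeleton. 7-dehydrocholesterol, the direct precursor of cholesterol in one branch of its synthesis and of vitamin D in sunlit skin, has an additional double bond in ring B, and lumisterol is a stereoisomer of 7-dehydrocholesterol that light produces. The labels give each as a derivative hydroxylated at carbon 20. Hydroxylated sterols are known as ligands of several nuclear receptors, among them the liver X receptors and the ROR family.

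Abundance is given as FPKM, the number of sequenced fragments scaled by transcript length and by library size, so that levels of different genes can be compared. The table holds 46958 rows, of which 20136 are single protein-coding genes. The spacing of low values gave an estimated depth of 12500000 to 13100000 fragments per library. At that depth a gene of 5 FPKM with a transcript of the median length of 3206 nt rests on 188 to 197 fragments, and counting error alone gives it a 95% Poisson interval of 4.31 to 5.77 FPKM in the 20(OH)L3 library. Differences between sterols were therefore described for the 7754 coding genes with a mean of at least 5 FPKM. The cells fit their label: 7 of 9 dermal fibroblast markers had a row of their own, all 7 exceeded 5 FPKM, and they summed to 3662 FPKM with 20(OH)L3, 4457 FPKM with 20(OH)Cholesterol and 3886 FPKM with 20(OH)7DHC. Col3a1 and Pdgfra, the other markers, share their rows with overlapping loci. Defining markers of most other skin cells were at or near 0. Krt5, Krt14 and Krt1 of keratinocytes stayed below 0.46 FPKM in each library. All 12 keratinocyte markers summed to 19.8 to 25.1 FPKM, with Ivl alone at a mean of 11.3 FPKM. Of markers with a coding row of their own, those of T cells summed to at most 0.0436 FPKM. Those of melanocytes, endothelium and mast cells summed to at most 2.90 FPKM each. The T cell sum leaves out Trac, not annotated as coding, with a mean of 1.58 FPKM, and the merged row of Lck with 0.717 FPKM. The endothelial sum leaves out the merged row of Egfl7, which read 21.3 FPKM with 20(OH)L3, 31.3 FPKM with 20(OH)Cholesterol and 22.4 FPKM with 20(OH)7DHC. The 9 macrophage and leukocyte markers summed to 12.2 to 16.3 FPKM, with 3 of them listed at 0 in all 3 libraries. Pericyte and smooth muscle markers summed to 21.8 to 25.2 FPKM, and adipocyte, skeletal muscle and cartilage or bone markers to at most 8.60 FPKM. Schwann cell markers summed to 99.7 to 113 FPKM and dermal papilla markers to 171 to 227 FPKM, and 1 gene held most of each sum, Ncam1 with a mean of 100.0 FPKM and Crabp1 with 188 FPKM. In bulk samples fewer cells of a type and less RNA per cell cannot be told apart.

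Among coding genes with a row of their own, the most abundant transcripts of the wild-type cells came mostly from genes of the cytoskeleton, the extracellular matrix and inflammation. Cytoskeletal Actb (chr5:142903115-142906754) led the 20 most abundant of these genes, with 9648 FPKM with 20(OH)L3, 11592 FPKM with 20(OH)Cholesterol and 10584 FPKM with 20(OH)7DHC. Bgn, the small proteoglycan biglycan that binds collagen, had 7017 FPKM with 20(OH)L3, 9545 FPKM with 20(OH)Cholesterol and 9645 FPKM with 20(OH)7DHC. The calcium-binding protein gene S100a6 followed with 8291 FPKM with 20(OH)L3, 7334 FPKM with 20(OH)Cholesterol and 7615 FPKM with 20(OH)7DHC. Next stood Saa3 (chr7:46711998-46715700), an acute-phase serum amyloid protein secreted in inflammation, with 6163 FPKM with 20(OH)L3, 10480 FPKM with 20(OH)Cholesterol and 5765 FPKM with 20(OH)7DHC. The 20(OH)Cholesterol value of Saa3 was the highest by a wide margin, whereas that of Ccl2, the chemokine that attracts monocytes, hardly differed. Ccl2 (chr11:82035571-82037453) had 3986 FPKM with 20(OH)L3, 4001 FPKM with 20(OH)Cholesterol and 3933 FPKM with 20(OH)7DHC. Both are known as products of inflamed fibroblasts, and together with B2m, the light chain of MHC class I with a mean of 3115 FPKM, and the interferon-inducible membrane protein Ifitm3 with 2487 FPKM, they placed 4 genes of defence among the 20. Rows that merge several loci stand outside this ranking, and some are higher, such as that of the ferritin light chain gene Ftl1, merged with Gm22133, which averaged 40802 FPKM.

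**Figure D1:**
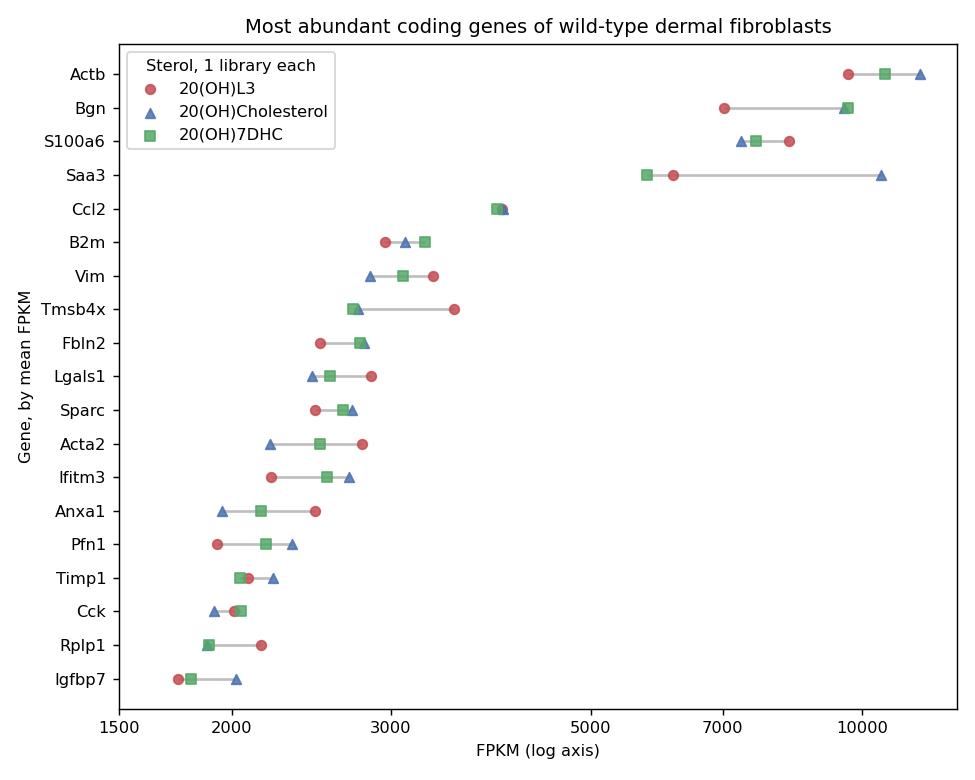
FPKM on a log axis of 19 of the 20 coding genes with a row of their own and the highest mean over the 3 wild-type libraries, 1 symbol per sterol and gene, joined by a line from the lowest to the highest. Saa3 shows the widest line, with 10480 FPKM with 20(OH)Cholesterol, and Ccl2 the shortest.

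Most of the others belong to the cytoskeleton, the matrix and the inhibition of its proteases. Intermediate filament gene Vim averaged 3095 FPKM over the 3 libraries, the matrix glycoproteins Fbln2 and Sparc 2694 and 2617 FPKM, and the smooth muscle actin Acta2, a mark of contractile fibroblasts, 2500 FPKM. Timp1, which inhibits matrix metalloproteinases, averaged 2116 FPKM. Cck, the gene of the peptide hormone cholecystokinin known from gut and brain, was in the list as well, with 2011 FPKM with 20(OH)L3, 1914 FPKM with 20(OH)Cholesterol and 2051 FPKM with 20(OH)7DHC. The 20 genes held 14.1% of all coding FPKM with 20(OH)L3, 15.2% with 20(OH)Cholesterol and 14.5% with 20(OH)7DHC.

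Lists of genes for known functions, with the members chosen for the tissue, described the state more broadly. The 33 measured matrix glycoproteins, proteoglycans and crosslinking enzymes above the filter stood beside 14 collagens, led by Col1a1 with a mean of 1310 FPKM. Of 21 chemokine genes, 15 passed the filter. They attract monocytes (Ccl2 and Ccl7), neutrophils (Cxcl1 and Cxcl5) and, through the interferon-induced Cxcl9 and Cxcl10, T cells, and Cxcl10 read 253 FPKM with 20(OH)L3, 333 FPKM with 20(OH)Cholesterol and 329 FPKM with 20(OH)7DHC. Cytokine genes ranged from Csf1, the macrophage growth factor, with 1335 FPKM with 20(OH)L3, 1482 FPKM with 20(OH)Cholesterol and 1533 FPKM with 20(OH)7DHC, to Il1b, which was listed at 0 in all 3. Interferon-response genes were broadly present, and 33 of the 37 with a coding row of their own passed the filter, among them Bst2, which tethers virus particles, and Isg15, a ubiquitin-like modifier. Proliferation genes were expressed at lower levels, with 23 of 26 mitosis genes above the filter, and so were positional factors, with 23 of 34. The HOX genes above the filter lay in the A, B and C clusters, and Hoxa13, of the most distal limb, was listed at 0.

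Few genes differed by much between the 3 libraries. The difference between sterols was taken on the log2(FPKM + 1) scale, where 1 unit is 2-fold and where differences of low genes are understated. The SD of this difference over the 7754 genes was 0.28 for 20(OH)L3 over 20(OH)7DHC, 0.22 for 20(OH)Cholesterol over 20(OH)7DHC and 0.31 for 20(OH)L3 over 20(OH)Cholesterol. Within 1.25-fold lay 84.5%, 89.3% and 79.6% of the genes in the same order of pairs. For 20(OH)L3 over 20(OH)7DHC, 54 genes (0.696%) were past 2-fold, 29 of them higher (0.374% of those compared) and 25 lower (0.322%). For 20(OH)Cholesterol over 20(OH)7DHC 28 genes (0.361%) were past 2-fold, 18 of them higher (0.232%) and 10 lower (0.129%). For 20(OH)L3 over 20(OH)Cholesterol 75 genes (0.967%) were past 2-fold, 35 of them higher (0.451%) and 40 lower (0.516%). The 3 pairs share libraries, so a value that stands apart in 1 library enters 2 of them. Over the 3 libraries 112 genes (1.44%) had a range past 2-fold. The 20(OH)L3 library was the one apart for 60 of them, the 20(OH)Cholesterol library for 34 and the 20(OH)7DHC library for 18. The 20(OH)L3 library was also most often the one apart over all 7754 genes. There the counts were 3426, 2480 and 1848 genes in the same order of libraries. The median range of all genes was 0.22. It was 0.24 for genes of 5 to 20 FPKM, of which 2.17% passed 2-fold, 0.18 for those of 100 to 1000 FPKM, of which 0.682% did, and none of the 48 genes of at least 1000 FPKM passed.

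**Figure D2:**
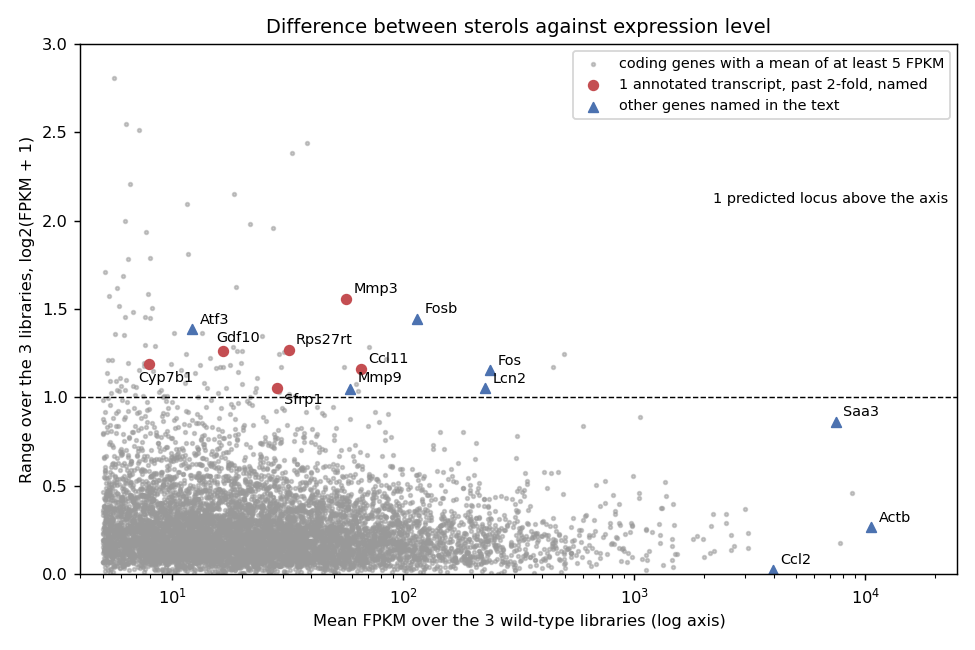
Range over the 3 wild-type libraries on the log2(FPKM + 1) scale against mean FPKM on a log axis, 1 point per coding gene, with the 2-fold line dashed. Most genes lie below 0.5, the genes past 2-fold are mostly of low level, and Mmp3, Fosb, Fos and Lcn2 stand above the line at higher levels. 1 predicted locus lies above the axis.

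The 30 genes with the widest range were then taken as a group, leaving out predicted loci, RIKEN clone symbols and repeated symbols. Since they were chosen by that range, their values are a description. Their median level was 7.96 FPKM against 21.5 FPKM for all 7754 genes. Of the 30, 25 averaged under 20 FPKM, as did 3687 of the 7754. Several annotated transcripts are known for 29 of the 30, and for 7218 of the 7754. The last gene inside, Rpp40 of the RNase P complex, had a range of 1.36, as had the first outside, the receptor phosphatase gene Ptpru. The 20(OH)L3 library stood apart as higher for 9 of the 30 and as lower for 6, against 20.7% and 23.5% of all genes. The 20(OH)Cholesterol library stood apart as higher for 8 and as lower for 2, against 16.4% and 15.5%. The 20(OH)7DHC library did so as higher for 2 and as lower for 3, against 12.1% and 11.7%.

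Kif14, a kinesin motor of cytokinesis, led the genes that were higher with 20(OH)L3, with 12.3 FPKM with 20(OH)L3, 3.55 FPKM with 20(OH)Cholesterol and 0.898 FPKM with 20(OH)7DHC. The list of mitosis genes is given below. Fah, the last enzyme of tyrosine breakdown, read 52.5 FPKM with 20(OH)L3, 17.0 FPKM with 20(OH)Cholesterol and 12.7 FPKM with 20(OH)7DHC. Ccdc191 read 16.6 FPKM with 20(OH)L3, 2.85 FPKM with 20(OH)Cholesterol and 2.08 FPKM with 20(OH)7DHC. In all 3 genes the 20(OH)L3 value was the highest and the 20(OH)7DHC value the lowest. Foxn3, a forkhead repressor, was lower with 20(OH)L3, at 1.09 FPKM against 6.69 FPKM with 20(OH)Cholesterol and 11.2 FPKM with 20(OH)7DHC. Spen, a large corepressor that takes part in X inactivation, read 2.04 FPKM with 20(OH)L3, 11.1 FPKM with 20(OH)Cholesterol and 5.56 FPKM with 20(OH)7DHC.

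Among genes higher with 20(OH)Cholesterol, Rarres2 encodes chemerin, a chemoattractant and adipokine. It read 14.0 FPKM with 20(OH)L3, 80.6 FPKM with 20(OH)Cholesterol and 20.2 FPKM with 20(OH)7DHC. Fmo1, a flavin-containing monooxygenase that oxidises foreign amines and sulfides, read 9.83 FPKM with 20(OH)L3, 41.8 FPKM with 20(OH)Cholesterol and 13.7 FPKM with 20(OH)7DHC. Mgp, an inhibitor of matrix calcification, read 3.26 FPKM with 20(OH)L3, 11.1 FPKM with 20(OH)Cholesterol and 2.93 FPKM with 20(OH)7DHC. Mmp3, a metalloproteinase that degrades matrix, and Stab1, a scavenger receptor, belong to the same group. Of the 5 genes for which 20(OH)7DHC stood apart, Hemk1, a methyltransferase that acts on release factors, was the widest, with 6.86 FPKM with 20(OH)L3, 14.5 FPKM with 20(OH)Cholesterol and 34.0 FPKM with 20(OH)7DHC. Atm, the kinase that signals DNA breaks, was the lowest with 20(OH)7DHC, at 12.4 FPKM with 20(OH)L3, 5.41 FPKM with 20(OH)Cholesterol and 1.90 FPKM with 20(OH)7DHC.

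**Figure D3:**
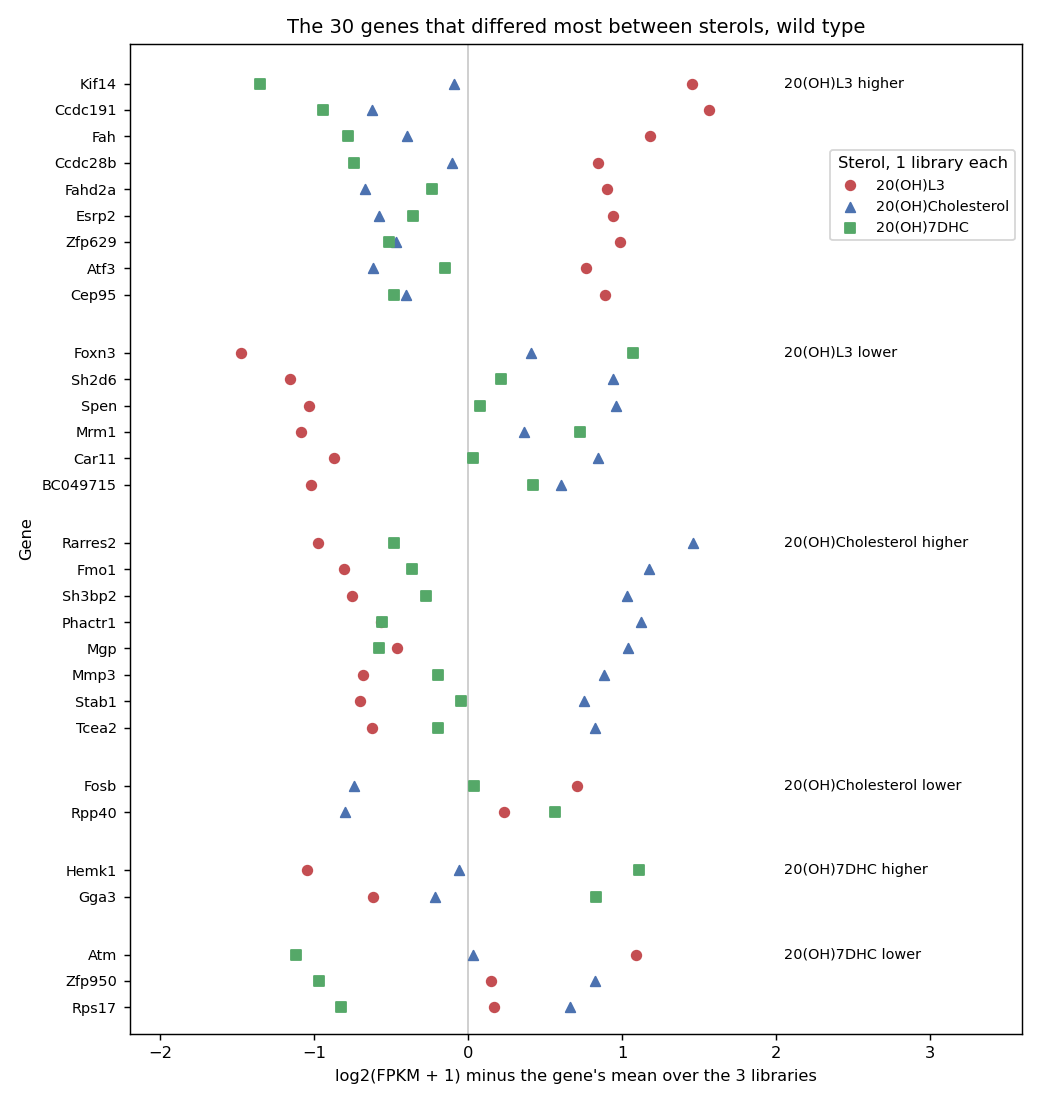
Level of each of the 30 genes with the widest range, as log2(FPKM + 1) minus the mean of the gene over the 3 wild-type libraries, 1 symbol per sterol, grouped by the library that stands apart. The groups hold 9 and 6 genes for 20(OH)L3, 8 and 2 for 20(OH)Cholesterol, and 2 and 3 for 20(OH)7DHC.

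For a gene with 1 annotated transcript in GENCODE M21, that annotation leaves no fragments to divide among transcripts, and its fragments can be estimated back from the FPKM. The annotation behind the deposited FPKM is not stated and may hold more transcripts of such a gene. Of 536 such genes, 9 passed 2-fold, a share of 1.68%, against 1.43% of the 7218 genes with several transcripts. Of the 9, 3 are predicted or unnamed loci and Rps27rt is a retrotransposed copy of a ribosomal protein gene. Rps27rt was highest with 20(OH)L3, at 48.4 FPKM with 20(OH)L3, 27.9 FPKM with 20(OH)Cholesterol and 19.5 FPKM with 20(OH)7DHC. So were 1810011O10Rik (34.8, 16.5 and 17.5 FPKM in the same order) and Gm10135 (28.7, 13.8 and 22.5 FPKM), whereas Gm26741 was listed at 0, 511 and 435 FPKM. The 9 genes thus had no common order. With these loci set aside, the other 5 were all highest with 20(OH)Cholesterol and lowest with 20(OH)L3. Mmp3 (chr9:7445822-7455975) read 31.4 FPKM with 20(OH)L3 (95% Poisson interval 29.0 to 33.9), 94.4 FPKM with 20(OH)Cholesterol (90.3 to 98.7) and 44.2 FPKM with 20(OH)7DHC (41.4 to 47.2), from an estimated 628, 1965 and 927 fragments. Gdf10 (chr14:33923587-33937983), a growth factor of the BMP family, read 10.3 FPKM with 20(OH)L3 (9.56 to 11.2), 26.2 FPKM with 20(OH)Cholesterol (24.99 to 27.5) and 13.2 FPKM with 20(OH)7DHC (12.4 to 14.1). Sfrp1 (chr8:23411502-23449632), a secreted Wnt antagonist, read 19.9 FPKM with 20(OH)L3 (18.7 to 21.2), 42.5 FPKM with 20(OH)Cholesterol (40.7 to 44.2) and 22.6 FPKM with 20(OH)7DHC (21.4 to 23.9). For these 3 genes the intervals did not overlap between any pair of libraries, and they cover counting error only. All 3 were chosen for a range past 2-fold. At their fragment counts a gap between the highest and the lowest library follows from that choice. The share of such gaps over the 536 genes was not computed.

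Ccl11 (chr11:82057823-82062955), the chemokine eotaxin that attracts eosinophils, read 40.3 FPKM with 20(OH)L3 (36.6 to 44.2), 91.4 FPKM with 20(OH)Cholesterol (85.9 to 97.1) and 65.0 FPKM with 20(OH)7DHC (60.5 to 69.8). Cyp7b1 (chr3:18071950-18243338) encodes the 7-alpha-hydroxylase that acts on oxysterols. It read 5.16 FPKM with 20(OH)L3 (4.30 to 6.14), 13.1 FPKM with 20(OH)Cholesterol (11.7 to 14.6) and 5.59 FPKM with 20(OH)7DHC (4.71 to 6.58). For Cyp7b1 the 20(OH)Cholesterol library stood apart, while the intervals of 20(OH)L3 and 20(OH)7DHC overlapped.

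Immediate-early genes are switched on within minutes by growth factors and stress, and most encode transcription factors and feedback regulators of the MAP kinase pathway. Most of them were highest with 20(OH)L3. Of 30 with a coding row, 27 passed the filter, and 17 of the 27 were highest with 20(OH)L3, 7 with 20(OH)Cholesterol and 3 with 20(OH)7DHC, against 36.4%, 35.1% and 28.5% of all genes. The AP-1 subunit Fos (chr12:85473890-85477273) read 334 FPKM with 20(OH)L3, 150 FPKM with 20(OH)Cholesterol and 230 FPKM with 20(OH)7DHC. Its relative Fosb (chr7:19302696-19310051) read 173 FPKM with 20(OH)L3, 62.7 FPKM with 20(OH)Cholesterol and 108 FPKM with 20(OH)7DHC. The stress-induced Atf3 (chr1:191170296-191218039) read 19.7 FPKM with 20(OH)L3, 6.93 FPKM with 20(OH)Cholesterol and 10.0 FPKM with 20(OH)7DHC. These 3 were the list's members past 2-fold, and each had 20(OH)L3 at the top, 20(OH)7DHC in the middle and 20(OH)Cholesterol at the bottom. Jun, the partner of Fos, followed the same order, with 108 FPKM with 20(OH)L3, 75.4 FPKM with 20(OH)Cholesterol and 86.6 FPKM with 20(OH)7DHC, and so did Dusp1 and Dusp6, phosphatases that switch MAP kinases off. Dusp1 read 186 FPKM with 20(OH)L3, 107 FPKM with 20(OH)Cholesterol and 141 FPKM with 20(OH)7DHC. Klf2, a factor of vessel and lymphocyte quiescence, read 61.0 FPKM with 20(OH)L3, 31.1 FPKM with 20(OH)Cholesterol and 35.1 FPKM with 20(OH)7DHC, and Egr2, a zinc-finger factor, 12.0 FPKM with 20(OH)L3, 6.86 FPKM with 20(OH)Cholesterol and 6.26 FPKM with 20(OH)7DHC. Other members differed less, such as Myc with 96.7 FPKM with 20(OH)L3, 100 FPKM with 20(OH)Cholesterol and 92.2 FPKM with 20(OH)7DHC, and Nr4a1 was highest with 20(OH)Cholesterol, at 114 FPKM with 20(OH)L3, 148 FPKM with 20(OH)Cholesterol and 101 FPKM with 20(OH)7DHC. The median difference of the 27 was 0.17 for 20(OH)L3 over 20(OH)7DHC with 21 of 27 above 0, 0.05 for 20(OH)Cholesterol over 20(OH)7DHC with 14 of 27, and 0.24 for 20(OH)L3 over 20(OH)Cholesterol with 19 of 27. Over all genes the medians were -0.01, 0.00 and -0.01, and 47.9%, 50.6% and 48.3% lay above 0.

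The promoters of Fos, Fosb and Atf3, which shared this order of sterols, are shown with that of Mmp3, whose order was the reverse. Each is the RefSeq window on GRCm38.p6 of 250 bases before to 50 after the annotated start, read 5′ to 3′ on the gene's strand. The windows are chr12:85473640-85473939 on the plus strand for Fos, chr7:19309996-19310295 on the minus strand for Fosb, chr1:191183284-191183583 on the minus strand for Atf3 and chr9:7445572-7445871 on the plus strand for Mmp3. For Atf3 the start used lies inside the gene coordinates given above, which reach upstream to base 191218039. The region before that more upstream start is not shown. Capitals mark matches, on either strand, to the letters TGACG of a short CRE site, TGANTCA of an AP-1 site and TATAAA of a TATA box.
Fos: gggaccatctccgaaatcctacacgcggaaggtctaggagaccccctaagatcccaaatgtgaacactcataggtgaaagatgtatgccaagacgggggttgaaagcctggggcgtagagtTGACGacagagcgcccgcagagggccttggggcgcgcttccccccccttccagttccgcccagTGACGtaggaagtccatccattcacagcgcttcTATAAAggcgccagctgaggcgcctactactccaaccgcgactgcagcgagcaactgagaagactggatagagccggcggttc
Fosb: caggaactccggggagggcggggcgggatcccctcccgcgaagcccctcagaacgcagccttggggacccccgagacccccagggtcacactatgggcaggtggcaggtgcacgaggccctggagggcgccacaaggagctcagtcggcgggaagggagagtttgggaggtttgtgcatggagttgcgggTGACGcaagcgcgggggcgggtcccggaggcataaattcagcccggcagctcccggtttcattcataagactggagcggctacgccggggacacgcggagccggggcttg
Atf3: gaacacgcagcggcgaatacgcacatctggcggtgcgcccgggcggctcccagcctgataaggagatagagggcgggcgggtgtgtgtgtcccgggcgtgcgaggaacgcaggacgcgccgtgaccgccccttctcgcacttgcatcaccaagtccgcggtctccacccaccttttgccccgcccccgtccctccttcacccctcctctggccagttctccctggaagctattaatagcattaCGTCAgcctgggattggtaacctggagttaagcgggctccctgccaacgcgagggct
Mmp3: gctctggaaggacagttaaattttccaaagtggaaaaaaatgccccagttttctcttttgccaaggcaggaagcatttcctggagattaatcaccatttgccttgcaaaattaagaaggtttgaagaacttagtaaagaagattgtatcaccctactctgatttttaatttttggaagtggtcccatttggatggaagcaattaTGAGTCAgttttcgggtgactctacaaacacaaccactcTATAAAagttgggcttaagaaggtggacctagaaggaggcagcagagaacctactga
The short CRE site is part of the sequence that CREB and ATF factors bind, and the AP-1 site is bound by dimers of Fos and Jun proteins. Fos held 2 short CRE sites, at bases 122 to 126 and 185 to 189 of the window, Fosb 1 at bases 191 to 195, and Atf3 1 on the other strand at bases 244 to 248. Mmp3 held an AP-1 site at bases 205 to 211 and no short CRE site. A TATA box stood in Fos at bases 218 to 223 and in Mmp3 at bases 244 to 249. No full CRE and no CArG box, the site of serum response factor, matched in the 4 windows. Bases more than 250 before the start were not searched, so nothing is said of sites farther upstream. Of all 32851 promoter windows in the table, 20.8% held the short CRE site, 7.81% the AP-1 site, 13.6% the TATA box, 1.79% the full CRE and 1.63% the CArG box. A match is a description of letters and was not tested for binding.

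Inflammatory, complement and matrix genes were most often highest with 20(OH)Cholesterol, as were 35.1% of all genes, against 36.4% with 20(OH)L3 and 28.5% with 20(OH)7DHC. Over all genes the medians of the 3 pairs lie between -0.01 and 0.00. Of 15 chemokine genes above the filter 11 were highest with 20(OH)Cholesterol, 4 with 20(OH)L3 and none with 20(OH)7DHC. Ccl5, which attracts T cells and monocytes, read 16.6 FPKM with 20(OH)L3, 40.8 FPKM with 20(OH)Cholesterol and 29.6 FPKM with 20(OH)7DHC, and with Ccl11 it was past 2-fold. The most abundant chemokines did not follow: Ccl2 differed little, as given above, and Ccl7 read 1398 FPKM with 20(OH)L3, 1280 FPKM with 20(OH)Cholesterol and 1198 FPKM with 20(OH)7DHC. The median difference of the 15 was 0.02 for 20(OH)L3 over 20(OH)7DHC with 8 above 0, 0.22 for 20(OH)Cholesterol over 20(OH)7DHC with 14 above 0, and -0.33 for 20(OH)L3 over 20(OH)Cholesterol with 4 above 0. Of 6 complement genes above the filter 5 were highest with 20(OH)Cholesterol and none with 20(OH)L3. C3, the central component, read 281 FPKM with 20(OH)L3, 374 FPKM with 20(OH)Cholesterol and 303 FPKM with 20(OH)7DHC, and the C1 inhibitor gene Serping1 80.7 FPKM with 20(OH)L3, 113 FPKM with 20(OH)Cholesterol and 88.9 FPKM with 20(OH)7DHC. The complement medians were -0.12, 0.29 and -0.43 in the same order of pairs, with 2, 5 and 0 of 6 above 0.

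Lcn2 (chr2:32384633-32388252), an iron-siderophore binding protein of innate defence, read 159 FPKM with 20(OH)L3, 332 FPKM with 20(OH)Cholesterol and 189 FPKM with 20(OH)7DHC. Saa3, given above, was likewise highest with 20(OH)Cholesterol, with its values for 20(OH)L3 and 20(OH)7DHC close to each other. The metallothioneins Mt1 and Mt2, which bind zinc and copper, were also highest with 20(OH)Cholesterol. Mt2 read 772 FPKM with 20(OH)L3, 1431 FPKM with 20(OH)Cholesterol and 968 FPKM with 20(OH)7DHC, and Mt1 441 FPKM with 20(OH)L3, 790 FPKM with 20(OH)Cholesterol and 565 FPKM with 20(OH)7DHC. Of 24 cytokine and NF-kB feedback genes above the filter 13 were highest with 20(OH)Cholesterol, 8 with 20(OH)L3 and 3 with 20(OH)7DHC, and none passed 2-fold. Their medians were 0.04, 0.15 and -0.17, and those of the 5 acute-phase genes above the filter, to which Saa3 and Lcn2 belong, 0.02, 0.09 and -0.07. Il6 read 52.7 FPKM with 20(OH)L3, 64.7 FPKM with 20(OH)Cholesterol and 49.0 FPKM with 20(OH)7DHC, whereas Socs3, a feedback inhibitor of cytokine receptors, was highest with 20(OH)L3, at 69.8 FPKM with 20(OH)L3, 42.5 FPKM with 20(OH)Cholesterol and 48.4 FPKM with 20(OH)7DHC. Inflammatory genes thus did not all have the same order of sterols.

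Fibroblast identity genes were highest with 20(OH)Cholesterol in 15 of 17 cases, against 35.1% of all genes, with medians of -0.02 for 20(OH)L3 over 20(OH)7DHC, 0.12 for 20(OH)Cholesterol over 20(OH)7DHC and -0.18 for 20(OH)L3 over 20(OH)Cholesterol, and with 7, 15 and 1 of 17 above 0. Lum, the collagen-binding proteoglycan lumican, read 10.7 FPKM with 20(OH)L3, 19.3 FPKM with 20(OH)Cholesterol and 10.2 FPKM with 20(OH)7DHC, and Dcn, the related decorin, 1254 FPKM with 20(OH)L3, 1489 FPKM with 20(OH)Cholesterol and 1148 FPKM with 20(OH)7DHC. Collagens were highest with 20(OH)Cholesterol in 8 of 14 cases, and their medians were -0.14, 0.10 and -0.24. Matrix proteins other than collagens, with the crosslinking enzymes, had medians of 0.01, 0.08 and -0.14 with 21 of 33 highest with 20(OH)Cholesterol. The 9 markers of dermal fibroblast subtypes above the filter had -0.16, 0.07 and -0.30. These lists share members, so their counts are not separate. Lum, Dcn and Sparc of the matrix list and Col1a1 of the collagens, for example, are also fibroblast identity genes. Col1a1 read 1124 FPKM with 20(OH)L3, 1459 FPKM with 20(OH)Cholesterol and 1347 FPKM with 20(OH)7DHC. Among matrix-degrading enzymes Mmp9, a gelatinase, read 41.5 FPKM with 20(OH)L3, 87.0 FPKM with 20(OH)Cholesterol and 48.6 FPKM with 20(OH)7DHC, and with Mmp3 it was past 2-fold, while the inhibitor Timp1 read 2084 FPKM with 20(OH)L3, 2220 FPKM with 20(OH)Cholesterol and 2045 FPKM with 20(OH)7DHC. The list of metalloproteinases, their inhibitors and the plasminogen system had medians of -0.02, 0.08 and -0.11, with 11 of 18 highest with 20(OH)Cholesterol. Of 17 growth factor and receptor genes 13 were highest with 20(OH)Cholesterol, with medians of -0.05, 0.10 and -0.16. Igf2 read 3.17 FPKM with 20(OH)L3, 8.67 FPKM with 20(OH)Cholesterol and 4.59 FPKM with 20(OH)7DHC, and Igfbp3, which binds IGFs, 21.2 FPKM with 20(OH)L3, 41.1 FPKM with 20(OH)Cholesterol and 21.9 FPKM with 20(OH)7DHC. Positional factors were highest with 20(OH)Cholesterol in 16 of 23 cases and lowest with 20(OH)L3 in 18, against 35.1% and 40.1% of all genes, with medians of -0.16, 0.11 and -0.24, against -0.01, 0.00 and -0.01. Prrx2, a homeobox gene of limb and skin mesenchyme, read 43.7 FPKM with 20(OH)L3, 64.6 FPKM with 20(OH)Cholesterol and 55.02 FPKM with 20(OH)7DHC, and none of the 23 passed 2-fold.

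**Figure D4:**
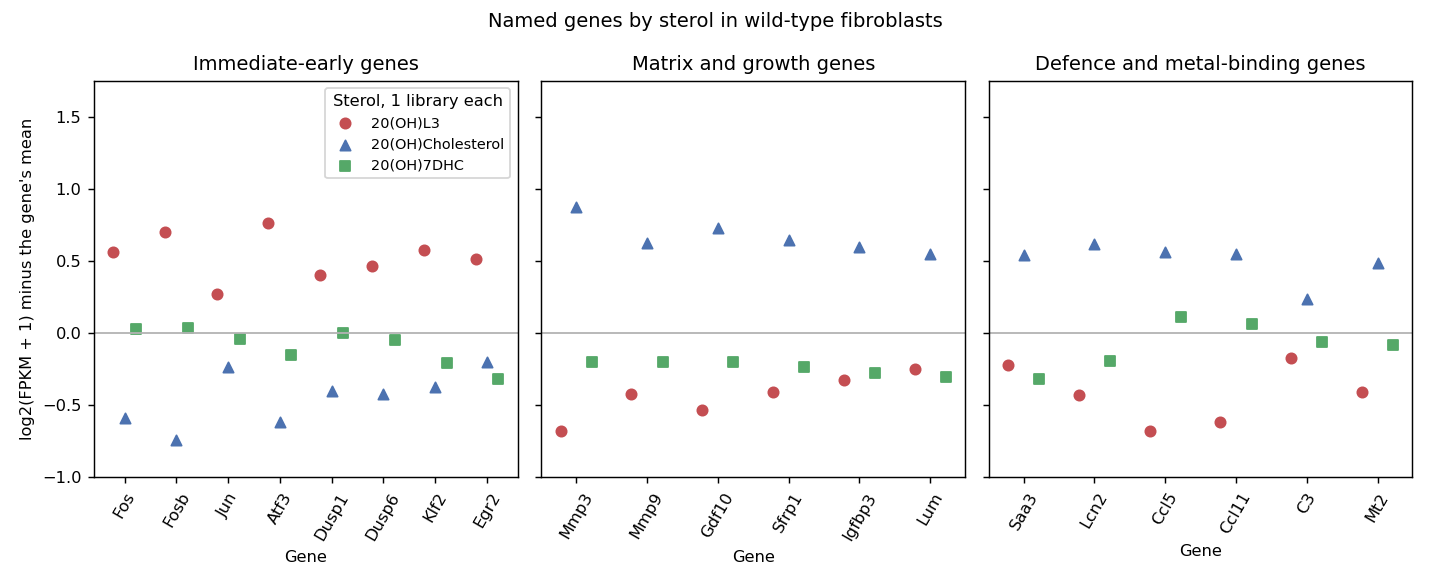
Level of 20 genes described in the text, chosen after their values were seen, as log2(FPKM + 1) minus the mean of the gene over the 3 wild-type libraries, 1 symbol per sterol. The 8 immediate-early genes are highest with 20(OH)L3, and the 12 matrix, growth, defence and metal-binding genes are highest with 20(OH)Cholesterol.

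Contractile genes had the opposite order to the matrix genes, with small differences. Of 17 above the filter, 10 were highest with 20(OH)L3 and 10 lowest with 20(OH)Cholesterol, against 36.4% and 32.9% of all genes, and their medians were 0.06 for 20(OH)L3 over 20(OH)7DHC, -0.07 for 20(OH)Cholesterol over 20(OH)7DHC and 0.15 for 20(OH)L3 over 20(OH)Cholesterol. Acta2 read 2787 FPKM with 20(OH)L3, 2206 FPKM with 20(OH)Cholesterol and 2507 FPKM with 20(OH)7DHC, and Tagln, which binds actin, 1597 FPKM with 20(OH)L3, 1175 FPKM with 20(OH)Cholesterol and 1326 FPKM with 20(OH)7DHC. None of the 17 passed 2-fold. Hypoxia-inducible genes had medians of 0.10, 0.24 and -0.15, and 11 of 17 were highest with 20(OH)Cholesterol, against 35.1% of all genes. Adm, a vasodilator peptide, read 186 FPKM with 20(OH)L3, 254 FPKM with 20(OH)Cholesterol and 197 FPKM with 20(OH)7DHC. Ankrd37, the member past 2-fold, had the reverse order, with 18.5 FPKM with 20(OH)L3, 7.59 FPKM with 20(OH)Cholesterol and 13.3 FPKM with 20(OH)7DHC.

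Cytosolic ribosomal proteins and respiratory chain subunits were highest with 20(OH)L3. Of 23 ribosomal protein genes above the filter 18 were highest with 20(OH)L3, with medians of 0.27, 0.05 and 0.20, and of 23 respiratory chain genes 19, against 36.4% of all genes, with medians of 0.15, -0.03 and 0.16. Rps14 read 1238 FPKM with 20(OH)L3, 875 FPKM with 20(OH)Cholesterol and 842 FPKM with 20(OH)7DHC, and Cox5b, of cytochrome oxidase, 106 FPKM with 20(OH)L3, 62.5 FPKM with 20(OH)Cholesterol and 80.4 FPKM with 20(OH)7DHC. Transcript length moved with this result. All genes with transcripts under 1000 nt had a median of 0.09 for 20(OH)L3 over 20(OH)7DHC and 0.09 for 20(OH)L3 over 20(OH)Cholesterol, and those of at least 6000 nt had -0.06 and -0.08, and the median length was 1248 nt for the ribosomal and 1735 nt for the respiratory list. With a length trend taken out, an alternative chosen after seeing the data, the ribosomal medians were 0.16 and 0.17 for these 2 pairs and the respiratory median for 20(OH)L3 over 20(OH)Cholesterol 0.10. Ribosomal protein genes also have many pseudogene copies, and how such fragments were counted is not given in the sources used here.

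Genes of the sterol lists above the filter, apart from Cyp7b1, stayed within 2-fold. Cholesterol synthesis and uptake genes are switched on by SREBP2 when a cell lacks sterol, and those above the filter had medians of -0.08 for 20(OH)L3 over 20(OH)7DHC, -0.12 for 20(OH)Cholesterol over 20(OH)7DHC and 0.05 for 20(OH)L3 over 20(OH)Cholesterol, with 8, 6 and 12 of 19 above 0. None of the 19 passed 2-fold. Dhcr7, which turns 7-dehydrocholesterol into cholesterol, was highest with 20(OH)7DHC, at 6.45 FPKM with 20(OH)L3, 7.51 FPKM with 20(OH)Cholesterol and 11.8 FPKM with 20(OH)7DHC. Of 8 liver X receptor genes and targets above the filter none passed 2-fold, their medians were -0.11, 0.07 and -0.19, and their median range was 0.34, against 0.22 for all genes. Abca1, the cholesterol exporter and a standard target, stayed below the filter with 2.53 FPKM with 20(OH)L3, 2.95 FPKM with 20(OH)Cholesterol and 3.29 FPKM with 20(OH)7DHC. The 7 genes of oxysterol and vitamin D metabolism above the filter had medians of -0.10, 0.13 and -0.23, and Cyp7b1, given above, was the member past 2-fold. Ch25h, the cholesterol 25-hydroxylase that interferon induces, read 162 FPKM with 20(OH)L3, 231 FPKM with 20(OH)Cholesterol and 187 FPKM with 20(OH)7DHC. The vitamin D receptor gene Vdr read 2.00 FPKM with 20(OH)L3, 2.29 FPKM with 20(OH)Cholesterol and 1.98 FPKM with 20(OH)7DHC, and Cyp24a1, its best-known target, was listed at 0 in all 3 libraries. Rora, a gene of the ROR family, read 5.18 FPKM with 20(OH)L3, 5.12 FPKM with 20(OH)Cholesterol and 5.09 FPKM with 20(OH)7DHC.

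**Figure D5:**
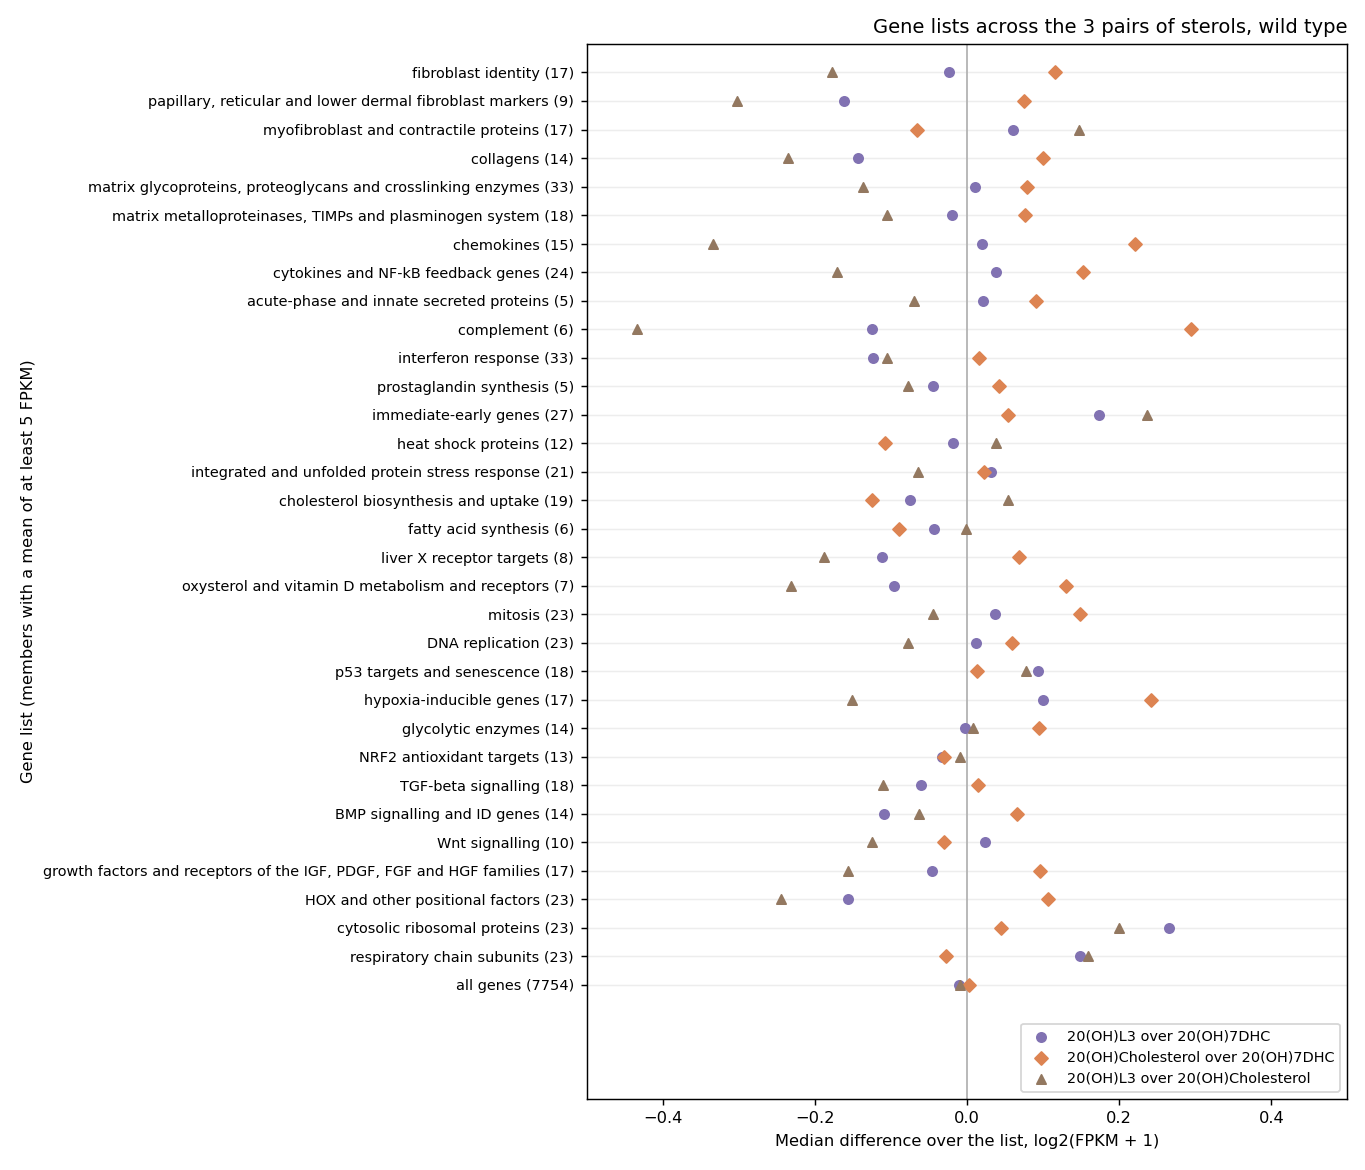
Median difference on the log2(FPKM + 1) scale of 32 gene lists and of all 7754 genes for the 3 pairs of sterols in wild type, with the number of members above the filter in brackets. Complement, with -0.43 for 20(OH)L3 over 20(OH)Cholesterol, lies farthest from 0, immediate-early genes reach 0.24 and ribosomal proteins 0.27, and all genes lie between -0.01 and 0.00.

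Cell cycle genes had no common highest sterol. Of 23 mitosis genes above the filter 12 were highest with 20(OH)Cholesterol, 10 with 20(OH)L3 and 1 with 20(OH)7DHC, against 35.1%, 36.4% and 28.5% of all genes. Their medians were 0.04, 0.15 and -0.04, with 15, 17 and 10 of 23 above 0. Of 23 replication genes 9 were highest with 20(OH)Cholesterol, 8 with 20(OH)7DHC and 6 with 20(OH)L3, with medians of 0.01, 0.06 and -0.08. Cdk1, the mitotic kinase, read 59.9 FPKM with 20(OH)L3, 83.0 FPKM with 20(OH)Cholesterol and 80.0 FPKM with 20(OH)7DHC. Interferon-response genes were lowest with 20(OH)L3 in 23 of 33 cases, against 40.1% of all genes, with medians of -0.12, 0.02 and -0.10, and Irf7, a transcription factor of the response, read 288 FPKM with 20(OH)L3, 392 FPKM with 20(OH)Cholesterol and 322 FPKM with 20(OH)7DHC. Heat shock, stress-response, fatty acid, NRF2, glycolysis, p53, TGF-beta, BMP, Wnt and prostaglandin lists had medians between -0.12 and 0.09 in each pair.

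The same pairs of sterols in the libraries labelled knockout, which share no library with wild type, gave the wild-type sign for a share of these genes near that of all genes. Of the 54 genes past 2-fold for 20(OH)L3 over 20(OH)7DHC in wild type, 32 (59.3%) had the same sign in the libraries labelled knockout, against 59.1% of all 7754 genes. For 20(OH)Cholesterol over 20(OH)7DHC it was 12 of 28 (42.9%), against 52.1% of all genes, and for 20(OH)L3 over 20(OH)Cholesterol 38 of 75 (50.7%), against 56.5%. The filter of 5 FPKM used wild-type means only, and some of these genes were at or near 0 under the knockout label. Cyp7b1, for example, read at most 0.197 FPKM there. A difference of 0 was counted as not the same sign. The shares therefore cannot say whether an order of sterols recurs. The spread over genes was smaller in wild type, with SDs of 0.28, 0.22 and 0.31, than in the libraries labelled knockout, with 0.83, 0.77 and 0.50. Both pairs that use the 20(OH)7DHC library labelled knockout had the wider spread there, and the pair without it had the narrowest. Levels also differed between the labels. Fos was at 334 FPKM with 20(OH)L3, 150 FPKM with 20(OH)Cholesterol and 230 FPKM with 20(OH)7DHC in wild type, and at 8.49 FPKM with 20(OH)L3, 13.5 FPKM with 20(OH)Cholesterol and 19.0 FPKM with 20(OH)7DHC in the libraries labelled knockout, where 20(OH)L3 was the lowest. Mmp3 read 1.58 FPKM with 20(OH)L3, 2.10 FPKM with 20(OH)Cholesterol and 0.141 FPKM with 20(OH)7DHC in the libraries labelled knockout, and Ccl5 and Ccl11 were listed at 0 in all 3 of them.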

How the data were processed

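Messenger RNA of 6 mouse dermal fibroblast libraries was sequenced, and the 3 wild-type libraries were analysed. Groups follow the genotype and treatment labels, and the level of the targeted gene and of some other genes is not reported here. The authors deposited FPKM per gene, per the file headers. The submitters' processing notes name STAR 2.5.4b, Cufflinks 2.2.1, Cuffdiff and the build GRCm38. The sources used here do not state the annotation, the filters, the strand setting or how fragments that map to several loci were counted. Of 46958 rows, 1061 merge overlapping symbols and 173 repeat a symbol. These rows were left out of the gene lists, and so was any gene without a row of its own. GENCODE M21 matched 44219 of 45724 single-symbol rows, 473 of them by an older symbol, and gave biotype, length and coordinates.

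The deposited FPKM were turned into log2(FPKM + 1) for coding genes with a mean of at least 5 FPKM over the 3 libraries. Each library was set against the others as values, since 1 library per sterol allows no test, and past 2-fold means a difference of at least 1 on this scale. A library stands apart for a gene when its gap to the middle value is the wider one. Depth is not stated and was estimated: 97.1% to 97.6% of low values of transcripts of 900 to 4000 nt were whole multiples of 1 fragment within 0.05, against 10% by chance, with 200 nt taken off each length. Poisson intervals rest on this estimate and cover counting error only.

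The genes named are the 20 with the highest mean, the 30 with the widest range, and per list the 2 highest and the 2 widest. Others were chosen after their values were seen, as were the 20 genes plotted by sterol. The libraries to describe and the 32 gene lists and 13 marker lists were chosen with earlier results of these data known. Each list is described by its counts and median, and those of all genes are given with them. Alternatives were 2 other pseudocounts, 3 other filters, scaling by quantiles or by the median of ratios, all single-symbol rows, transcripts of at least 1000 nt and leaving out each library. The steps were tested on simulated data. Python 3.11.15, numpy 2.4.6, pandas 2.3.3, scipy 1.17.1 and matplotlib 3.10.9 were used.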

Additional observations from a re-analysis of the deposited data

Results flagged for a closer look

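Among the 30 genes with the widest range, 6 moved one way in wild type and the opposite way in the libraries labelled knockout, each by more than 2-fold. The 30 genes passed 2-fold under both labels in 7 cases for 20(OH)L3 over 20(OH)7DHC, with the same sign in 4, in 5 cases for 20(OH)Cholesterol over 20(OH)7DHC, with the same sign in 2, and in 6 cases for 20(OH)L3 over 20(OH)Cholesterol, with the same sign in 4. Over all genes the same sign was found in 17 of 26, 5 of 9 and 11 of 18 such cases. Each value below, for the cases of opposite sign, is the wild-type log2 difference minus that of the libraries labelled knockout. The difference between the labels was not tested, since there is 1 library for each label and sterol. For 20(OH)L3 over 20(OH)7DHC it was -3.68 for Foxn3 (-2.55 in wild type, against 1.13 under the knockout label), 4.60 for Ccdc191 (2.51 and -2.09 in the same order) and 3.19 for Cep95, a centrosomal protein gene (1.37 and -1.83). For 20(OH)Cholesterol over 20(OH)7DHC it was 2.69 for Atm (1.15 and -1.54), 2.82 for Mgp (1.62 and -1.21) and -2.46 for Rpp40 (-1.36 and 1.10). For 20(OH)L3 over 20(OH)Cholesterol it was -2.96 for Mgp (-1.50 and 1.46) and 2.75 for Cep95 (1.29 and -1.46). All 6 genes have several annotated transcripts, as have 7218 of the 7754 genes compared.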

How the results depend on the processing

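Counts of genes past 2-fold depended on the filter and the pseudocount. They are given as higher and lower for 20(OH)L3 over 20(OH)7DHC, then 20(OH)Cholesterol over 20(OH)7DHC, then 20(OH)L3 over 20(OH)Cholesterol, and were 29, 25, 18, 10, 35 and 40 as reported. A pseudocount of 5 gave 10, 7, 8, 3, 13 and 16. A pseudocount of 0.1 gave 16 lower genes for 20(OH)Cholesterol over 20(OH)7DHC and kept the other counts within 1.5 times. A mean of at least 1 FPKM gave 54, 50, 38, 25, 66 and 71, no filter 69, 64, 52, 36, 79 and 91, and a mean of at least 20 FPKM 4, 7, 4, 2, 12 and 14. All single-symbol rows gave 87, 112, 76, 68, 86 and 117. Among genes with 1 annotated transcript, a choice made after seeing the data that leaves 536 genes, the counts were 1, 1, 2, 0, 2 and 6. Both scalings, transcripts of at least 1000 nt and removal of a length trend, the last chosen after seeing the data, kept the counts within 1.5 times. Of the 30 genes with the widest range, 19 stayed among the first 30 at a pseudocount of 5. At a mean of at least 20 FPKM 5 stayed, since that filter leaves out the 25 with a lower mean. The pseudocount of 0.1, both scalings, transcripts of at least 1000 nt and removal of a length trend kept 27 to 30. Ranking by the SD of FPKM relative to its mean kept 26. This overlap was not computed for the lower filters or for all single-symbol rows. The 20 most abundant genes were the same 20 without each library in turn, and 19 of them were found by the median. No list median of at least 0.15 reversed its sign. With a mean of at least 20 FPKM, 20(OH)Cholesterol over 20(OH)7DHC had medians of 0.07 against 0.15 for cytokines and 0.14 against 0.22 for chemokines. 20(OH)L3 over 20(OH)Cholesterol had 0.14 against 0.24 for immediate-early genes and -0.49 against -0.23 for oxysterol and vitamin D genes, and 20(OH)L3 over 20(OH)7DHC had -0.02 against -0.16 for fibroblast subtype markers. The cause of these shifts was not tested. No paired analysis was possible because each group holds 1 library and the shared replicate number 1 pairs nothing. Without replicates the spread between cultures is unknown, and all differences may lie within it.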

Other observations

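Rows outside the single coding genes differed more between the wild-type libraries. Of 622 rows that merge overlapping symbols and average at least 5 FPKM, 74 (11.9%) had a range past 2-fold, and of 623 single-symbol rows not annotated as coding 200 (32.1%) did, against 1.44% of coding genes. The row that merges Pdgfra, a receptor by which dermal fibroblasts are known, with the microRNA gene Mir7025 read 6.43 FPKM with 20(OH)L3, 8.68 FPKM with 20(OH)Cholesterol and 170 FPKM with 20(OH)7DHC. The row of Col3a1, merged with AC125167.1, read 208 FPKM with 20(OH)L3, 249 FPKM with 20(OH)Cholesterol and 216 FPKM with 20(OH)7DHC.

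Ccnd2, a cyclin that drives cells into S phase, was among the few genes of high level with a range past 2-fold and is in none of the lists. It read 483 FPKM with 20(OH)L3, 259 FPKM with 20(OH)Cholesterol and 584 FPKM with 20(OH)7DHC, and it was chosen after its values were seen.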
